A study of Mus musculus with 8 samples.

Results

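The 8 genes described here encode the MHC class II presentation machinery of the mouse. They comprise the class II chains H2-Aa, H2-Ab1 and H2-Eb1, the invariant chain Cd74, the peptide-loading chains H2-DMa, H2-DMb1 and H2-DMb2, and the regulator Ciita. They were chosen by gene symbol, 8 of the 23354 symbols in the gene tables, and all 8 were among the 10934 genes tested. RNA was sequenced from macrophages grown for 7 days from bone marrow of 8-week-old C57BL/6J mice in medium conditioned by L929 cells. There were 4 groups of 2 libraries each, and both genotypes carried floxed Ern1, the gene of the endoplasmic reticulum stress sensor IRE1α. Ern1f/fLyz2-Cre cells, with Cre driven by the myeloid gene Lyz2, were given IL-4 at 20 ng/ml for 24 hours or kept as controls. Ern1f/f cells, without Cre, were likewise given IL-4 or kept as controls. The labels do not say whether libraries came from separate mice or cultures, so p-values measure the spread between these libraries, which may be technical.

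Class II molecules are dimers of an alpha and a beta chain that display peptides from endocytosed protein to CD4+ T cells. The invariant chain fills their groove in the endoplasmic reticulum and leads them to the endosome, where the H2-DM dimer exchanges its last fragment for peptide. Transcription of the other genes depends on CIITA, a coactivator that does not itself bind DNA and is recruited by the RFX, CREB and NF-Y factors on an upstream module of X and Y boxes. In macrophages interferon-gamma is the classical inducer of CIITA, and IL-4, which signals through STAT6, is also known to raise class II.

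Libraries that share a replicate number deviated from their groups together across the genome, so values are given separately for the 4 libraries numbered 1, called set 1, and the 4 numbered 2, called set 2. Groups follow the sample titles; the genotype field of the labels contradicts the title in 4 of the 8 libraries. Ern1 held 7.43 (set 1) and 10.98 FPKM (set 2) in Ern1f/fLyz2-Cre cells with IL-4, and 14.3 and 12.7 FPKM in Ern1f/fLyz2-Cre controls. It held 10.2 and 9.11 FPKM in Ern1f/f cells with IL-4, and 11.5 and 9.55 FPKM in Ern1f/f controls. Over both treatments the ranges of the genotypes overlapped. In controls Ern1 was higher in Ern1f/fLyz2-Cre cells in both sets, and with IL-4 it was lower there in set 1 and higher in set 2. A gene-level value does not check the loss of some exons. Lyz2 held 5780 and 1572 FPKM in Ern1f/fLyz2-Cre cells with IL-4, 10949 and 2171 FPKM in their controls, 8901 and 11961 FPKM in Ern1f/f cells with IL-4, and 18114 and 17415 FPKM in Ern1f/f controls. It was thus lower under the title Ern1f/fLyz2-Cre in all 4 pairs, set 2 included, where the genotype field gives Ern1f/fLyz2-Cre for all 4 libraries. The macrophage genes Csf1r (the receptor for macrophage growth factor), Cd68 and Emr1 were each at 356 FPKM or more in every library.

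Stretches upstream of some class II genes are printed that hold AAC followed after 20 to 28 bases by TGATTGG. This form was chosen after the windows had been seen, and whether CIITA acts on these stretches was not tested. The RefSeq promoter table (GRCm38.p6, 250 bases before to 50 after each start) holds windows for 5 of the 8 genes, H2-Aa, H2-Eb1, H2-DMa, H2-DMb1 and H2-DMb2. The sequences read 5′ to 3′ on the strand of the gene. Capitals mark AAC, the last bases of the X box core AGCAAC (the whole core where it is complete). They also mark ATTGG, the reverse complement of the CCAAT motif bound by NF-Y. H2-Oa, a chain of the H2-DM inhibitor H2-DO, is printed beside them. Its window holds the whole core before ATTGG, as do those of H2-Ob and H2-Eb2, and the RNA of all 3 was scarce.
H2-Aa (chr17:34287859-34287912, minus strand): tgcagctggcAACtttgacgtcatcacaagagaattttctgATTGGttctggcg
H2-Eb1 (chr17:34305768-34305820, plus strand): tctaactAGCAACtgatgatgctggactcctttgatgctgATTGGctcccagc
H2-DMb1 (chr17:34153089-34153142, plus strand): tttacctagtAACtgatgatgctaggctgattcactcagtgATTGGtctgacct
H2-DMb2 (chr17:34145118-34145171, plus strand): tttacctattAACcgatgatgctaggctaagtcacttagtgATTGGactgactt
H2-Oa (chr17:34092295-34092348, plus strand): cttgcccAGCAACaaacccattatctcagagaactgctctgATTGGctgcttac

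In these stretches 27 or 28 bases lay between AAC and ATTGG. All motifs were searched on both strands. CCAAT was found in 5 of the 6 windows of the class II genes (H2-DMa has 2 windows), against 37.4% of all 32851 windows. Among these 6, AGCAAC was found only in that of H2-Eb1, against 14.8% of all windows. AGCAAC followed after 12 to 30 bases by ATTGG was again only in H2-Eb1, against 0.323%. Outside the 6, the windows of the scarce genes H2-Oa, H2-Ob and H2-Eb2 all held this combined motif. The combined motif overlaps both single ones. A looser form, AAC followed after 20 to 28 bases by TGATTGG, was found in H2-Aa, H2-Eb1, H2-DMb1 and H2-DMb2 and in 0.855% of all windows, but was chosen after the windows had been seen. Of the forms bound by STAT factors, TTC and GAA with 3 bases between them were found in the window of H2-DMb2 (8.3% of all windows). With 4 bases between them, the form known for STAT6, they were in no window of the 5 genes (6.95% of all windows). These matches describe letters within the windows and do not show binding.

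Levels differed by more than 100-fold between the genes on the FPKM scale, which accounts for transcript length. Cd74 (mm10 chromosome 18, 60803849 to 60812652) was the highest and ranked between 15 and 54 of all symbols in single libraries. It held 3716 (set 1) and 2924 FPKM (set 2) in Ern1f/fLyz2-Cre cells with IL-4 and 1817 and 1336 FPKM in Ern1f/fLyz2-Cre controls. It held 4529 and 3912 FPKM in Ern1f/f cells with IL-4 and 1903 and 2615 FPKM in Ern1f/f controls. Every library with IL-4 was above every control, and within both sets the Ern1f/fLyz2-Cre library was below the Ern1f/f library of the same treatment.

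H2-Aa, the alpha chain of the I-A molecule (chromosome 17, 34282751 to 34287771), held 961 and 1052 FPKM in Ern1f/fLyz2-Cre cells with IL-4 and 561 and 419 FPKM in Ern1f/fLyz2-Cre controls. It held 1024 and 1465 FPKM in Ern1f/f cells with IL-4 and 607 and 899 FPKM in Ern1f/f controls. The IL-4 and control libraries did not overlap, but Ern1f/f control replicate 2 came close to the lowest IL-4 library. H2-Ab1, the beta chain of I-A (chromosome 17, 34263227 to 34269418), held 828 and 693 FPKM in Ern1f/fLyz2-Cre cells with IL-4 and 501 and 299.7 FPKM in Ern1f/fLyz2-Cre controls. It held 901 and 1016 FPKM in Ern1f/f cells with IL-4 and 519 and 641 FPKM in Ern1f/f controls. IL-4 was again above control throughout, and Ern1f/fLyz2-Cre control replicate 2 was the lowest library for both chains of I-A.

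H2-Eb1, the beta chain of the I-E molecule (chromosome 17, 34305867 to 34316674), held 381 and 387 FPKM in Ern1f/fLyz2-Cre cells with IL-4 and 255 and 159 FPKM in Ern1f/fLyz2-Cre controls. It held 429 and 559 FPKM in Ern1f/f cells with IL-4 and 282 and 339.6 FPKM in Ern1f/f controls, again with no overlap between IL-4 and control. C57BL mice are known to lack a working alpha chain for I-E, and that pseudogene, H2-Ea-ps, was listed at 0 in all libraries but Ern1f/f IL-4 replicate 1, which had 0.0495 FPKM.

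**Figure D1:**
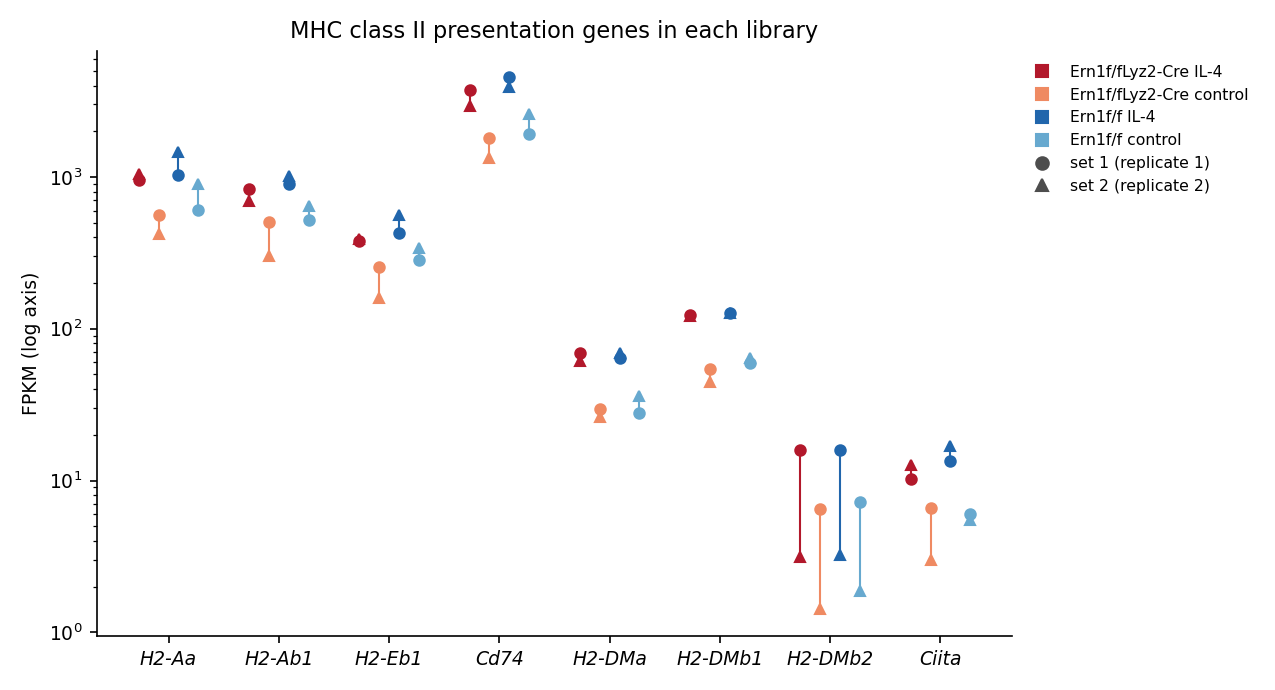
FPKM on a log axis of the 8 class II presentation genes in every library, by group (colour) and set (circles set 1, triangles set 2; a line joins the 2 libraries of a group). For 7 genes the IL-4 groups lie above the control groups, and H2-DMb2 alone is split by set, with 1.42 to 3.23 FPKM in set 2 and 6.53 to 16.0 FPKM in set 1.

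The peptide-loading chains were below the class II chains in every library. H2-DMa, the alpha chain of H2-DM (chromosome 17, 34122832 to 34139101), held 69.5 and 61.0 FPKM in Ern1f/fLyz2-Cre cells with IL-4 and 29.4 and 26.4 FPKM in Ern1f/fLyz2-Cre controls. It held 64.5 and 69.6 FPKM in Ern1f/f cells with IL-4 and 27.9 and 36.3 FPKM in Ern1f/f controls. The 4 IL-4 libraries lay within a narrow band far above the 4 controls.

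H2-DMb1, the main beta chain of H2-DM (chromosome 17, 34153191 to 34160229), held 122.9 and 121.2 FPKM in Ern1f/fLyz2-Cre cells with IL-4 and 54.3 and 44.7 FPKM in Ern1f/fLyz2-Cre controls. It held 126.5 and 126.3 FPKM in Ern1f/f cells with IL-4 and 59.8 and 63.9 FPKM in Ern1f/f controls. The 4 IL-4 libraries lay close together, far above the 4 controls.

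H2-DMb2, the duplicate beta chain next to H2-DMb1 (chromosome 17, 34145416 to 34151095), held 15.8 and 3.13 FPKM in Ern1f/fLyz2-Cre cells with IL-4 and 6.53 and 1.42 FPKM in Ern1f/fLyz2-Cre controls. It held 16.0 and 3.23 FPKM in Ern1f/f cells with IL-4 and 7.23 and 1.87 FPKM in Ern1f/f controls. Here the set decided the level: each set 2 library was below each set 1 library, as in 22.4% of all tested genes, and IL-4 was above control only within a set. The upper 95% bounds deposited by the authors lay 10.2% to 42.6% above the value for H2-DMb2, against 0.477% to 1.03% for Cd74. They are given for single libraries and do not cover the spread between libraries.

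Ciita (chromosome 16, 10480072 to 10527564), the least abundant gene beside H2-DMb2, held 10.2 and 12.7 FPKM in Ern1f/fLyz2-Cre cells with IL-4 and 6.56 and 3.01 FPKM in Ern1f/fLyz2-Cre controls. It held 13.4 and 16.9 FPKM in Ern1f/f cells with IL-4 and 5.99 and 5.53 FPKM in Ern1f/f controls. All IL-4 libraries were above all controls, and in set 1 the Ern1f/fLyz2-Cre control was slightly above the Ern1f/f control. The gene overlaps Dexi on the opposite strand, as H2-Eb1 overlaps the antisense gene Gm20513 and H2-DMa the antisense gene CR974462.4. Whether the authors counted by strand is not given in the sources used here, so reads of such pairs may not have been told apart.

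IL-4 came with more class II RNA in every pair of libraries: in all 32 combinations of gene, genotype and set the IL-4 library was the higher. In Ern1f/fLyz2-Cre cells the ratio of IL-4 to control ran from 1.49 to 2.42 in set 1 and from 2.19 to 4.21 in set 2. In Ern1f/f cells it ran from 1.52 to 2.38 in set 1 and from 1.496 to 3.05 in set 2. Being higher in both sets was shared by 31.3% of all tested genes in Ern1f/fLyz2-Cre cells and by 24.1% in Ern1f/f cells. Each of 7 genes showed no overlap between 4 IL-4 and 4 control libraries, a pattern found in 6.98% of all tested genes, and H2-DMb2 was the exception. In an exact two-sided permutation test over the 8 libraries these 7 genes had p = 0.0286, the smallest value possible, and H2-DMb2 had p = 0.286. When labels were exchanged only within a set, all 8 genes reached p = 0.0556, again the smallest possible in that exact permutation test, so that design cannot pass 0.05.

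Averaged over the genotypes, the log2 difference (IL-4 minus control on log2(FPKM + 1)) was largest for Ciita at 1.21 ± 0.22 (SE), followed by H2-DMb1 at 1.16 ± 0.10 and H2-DMa at 1.12 ± 0.12. Cd74 had 0.998 ± 0.17, H2-Aa 0.89 ± 0.20, H2-DMb2 0.88 ± 0.74, H2-Ab1 0.85 ± 0.19 and H2-Eb1 0.79 ± 0.19. The median over the 8 genes was 0.94, against -0.03 over all tested genes. In the limma fit over all tested genes without the replicate number, 2 of the 8 genes rose past the Benjamini-Hochberg threshold of 0.05, where 0.668% of all tested genes rose. These were H2-DMb1 (adjusted p = 0.0114) and H2-DMa (adjusted p = 0.0188). Cd74 (adjusted p = 0.0768) and Ciita (adjusted p = 0.0846) missed it, the class II chains had adjusted p of 0.128 to 0.147, and H2-DMb2 had 0.691.

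With the replicate number as a block all 8 genes rose in the average over genotypes (limma adjusted p = 0.00137 to 0.0345), where 5.88% of all tested genes rose. Single libraries bore on both counts. They also bore on all tested genes: with any 1 library left out, fewer of these were called for this average, with and without the block. Such a fit leaves 1 library in a group. Without the block neither H2-DMb1 nor H2-DMa kept its call in every such fit. With the block the class II chains, Cd74 and Ciita did not keep theirs in every such fit. The median difference of the 8 genes ran from 0.84 to 1.14 without the block and from 0.80 to 1.10 with it. The direction was the same in every such fit for these genes.

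Within Ern1f/fLyz2-Cre cells none of the 8 genes passed without the block, where 0.0549% of all tested genes were called and 933 of them had an unadjusted limma p under 0.05. With the block 3 rose, where 1.79% of all tested genes rose. All were H2-DM chains: H2-DMb1 by 1.29 ± 0.13 (SE, block; adjusted p = 0.0077), H2-DMa by 1.20 ± 0.16 (adjusted p = 0.0179) and H2-DMb2 by 0.96 ± 0.16 (adjusted p = 0.0311). Cd74 (log2 difference 1.08, blocked adjusted p = 0.0555), H2-Aa (1.05, 0.0715), Ciita (1.17, 0.0838), H2-Ab1 (0.96, 0.0914) and H2-Eb1 (0.93, 0.103) did not pass. With any 1 library left out, fewer of all tested genes were called in the blocked fit as well. None of the 3 calls was kept in every such fit, and the genes called changed with the library left out. The median difference of the 8 genes ran from 0.76 to 1.38 in these blocked fits.

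Within Ern1f/f cells 0 of the 8 genes and 0 of all tested genes (0%) passed in limma without the block, and 673 of all tested genes had an unadjusted p under 0.05. With the block H2-DMb1 rose by 1.02 ± 0.13 (SE, block; adjusted p = 0.0175) and H2-DMa by 1.05 ± 0.16 (adjusted p = 0.0307), where 1.26% of all tested genes rose. H2-DMb2 (log2 difference 0.80, blocked adjusted p = 0.0596), Ciita (1.25, 0.0871), Cd74 (0.92, 0.0949), H2-Aa (0.73, 0.203), H2-Ab1 (0.73, 0.213) and H2-Eb1 (0.66, 0.262) did not pass. Over all tested genes, leaving out either Ern1f/fLyz2-Cre control raised the number of blocked calls, and leaving out any other library lowered it. Neither of the 2 calls was kept in every fit with 1 library left out. The median difference of the 8 genes ran from 0.57 to 1.07 in these blocked fits.

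**Figure D2:**
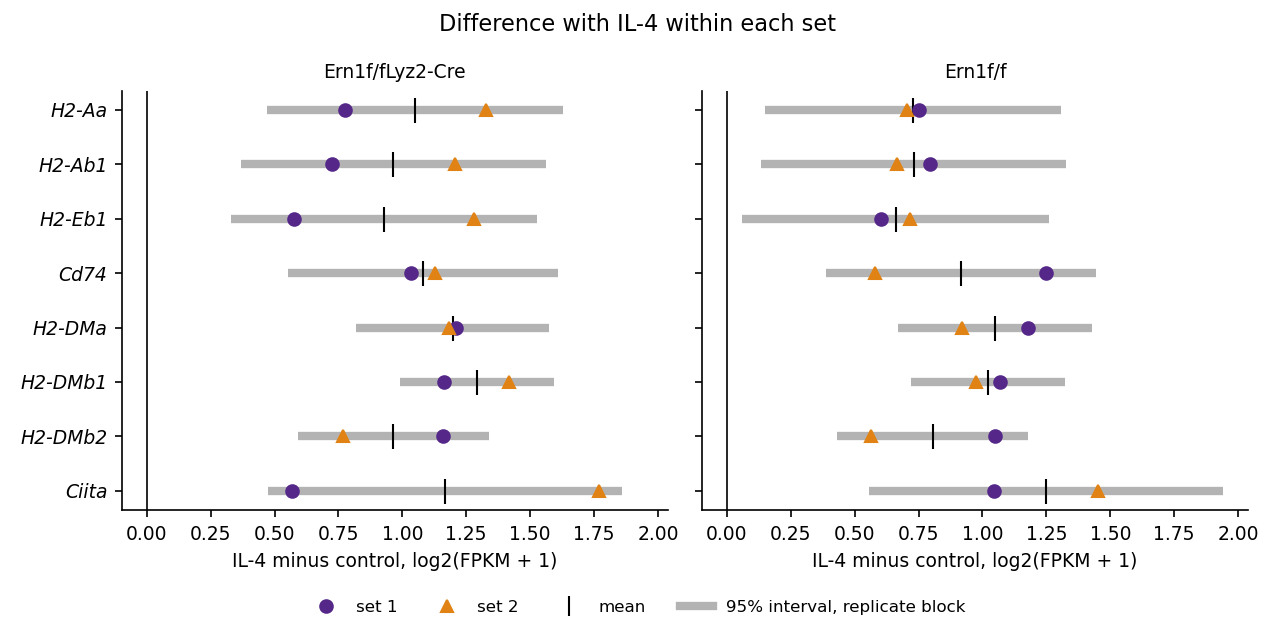
Difference of IL-4 minus control in log2(FPKM + 1) for each gene, in Ern1f/fLyz2-Cre (left) and Ern1f/f cells (right), within set 1 (circles) and set 2 (triangles), with the mean (bar) and its 95% interval from the blocked fit (grey). All points lie above 0, and the sets lie farthest apart for Ciita in Ern1f/fLyz2-Cre cells, at 0.57 and 1.77.

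The differences of the gene classes were not tested against each other and are given by set. In Ern1f/fLyz2-Cre cells the class II chains differed by 0.58 to 0.77 in set 1 and by 1.21 to 1.33 in set 2. In Ern1f/f cells they differed by 0.60 to 0.80 in set 1 and by 0.66 to 0.72 in set 2. Ciita had the larger log2 difference in set 2 in both genotypes, 1.77 against 0.57 in Ern1f/fLyz2-Cre cells and 1.45 against 1.05 in Ern1f/f cells. H2-DMa and H2-DMb1 spread the least, between 0.92 and 1.42 over both sets and genotypes. As a share of H2-Aa FPKM, H2-DMb1 stood at 12.8% and 11.5% in Ern1f/fLyz2-Cre cells with IL-4 and at 9.68% and 10.7% in their controls. It stood at 12.4% and 8.62% in Ern1f/f cells with IL-4 and at 9.84% and 7.10% in Ern1f/f controls, so it was higher with IL-4 in each of the 4 pairs.

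The question of the series is what the loss of Ern1 does to macrophage activation. For these genes the Ern1f/fLyz2-Cre library was below its Ern1f/f counterpart in 29 of 32 comparisons of gene, treatment and set, and the size depended on the set. In controls the ratio of Ern1f/fLyz2-Cre to Ern1f/f was 0.903 to 1.09 in set 1 and 0.466 to 0.762 in set 2. With IL-4 it was 0.759 to 1.08 in set 1 and 0.682 to 0.967 in set 2. In 14 of 16 combinations of gene and set the groups had the order Ern1f/f IL-4, Ern1f/fLyz2-Cre IL-4, Ern1f/f control, Ern1f/fLyz2-Cre control from high to low. H2-DMa and Ciita in set 1 were the exceptions. The share of all tested genes with this order was not worked out. The 16 combinations and 32 comparisons are read from the same libraries, so they are not independent, and 1 library can set many of them. The set 1 controls of the genotypes lay within 10% of each other.

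With IL-4 the log2 differences of Ern1f/fLyz2-Cre minus Ern1f/f ran from -0.38 ± 0.31 (SE) for Ciita to -0.03 ± 1.05 for H2-DMb2, with Cd74 at -0.35 ± 0.24 and H2-Aa at -0.28 ± 0.28. In controls H2-Eb1 had -0.62 ± 0.26, H2-Aa -0.61 ± 0.28, H2-Ab1 -0.57 ± 0.27 and Cd74 -0.52 ± 0.24. There H2-DMb1 had -0.32 ± 0.14, Ciita -0.30 ± 0.31, H2-DMa -0.19 ± 0.17 and H2-DMb2 -0.19 ± 1.05. None of the 8 genes passed in either treatment, with limma adjusted p of 1 in both. Of all tested genes 0% passed, with 42 at an unadjusted p under 0.05 with IL-4 and 27 in controls. With the block none of the 8 passed either (adjusted p = 0.9999 with IL-4 and 1 in controls), and 0.00915% of all tested genes passed with IL-4 and 0% in controls. A p that misses the threshold does not show equal levels: the blocked 95% interval for H2-Aa in controls ran from -1.19 to -0.03, and with IL-4 from -0.86 to 0.29.

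**Figure D3:**
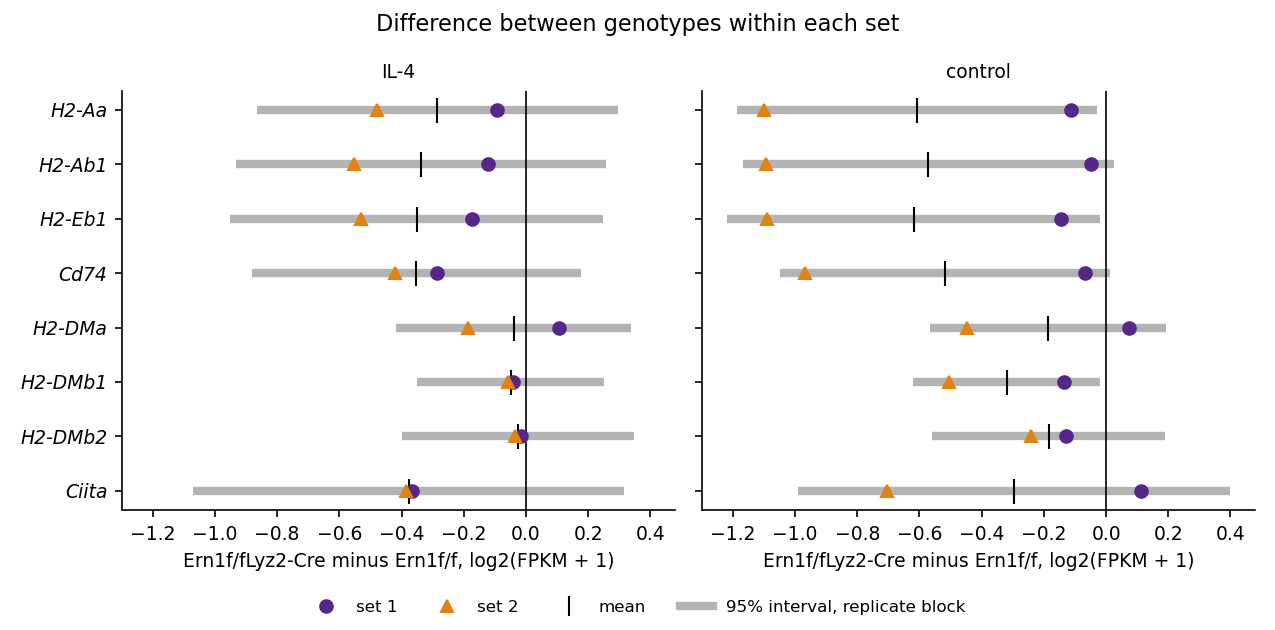
Difference of Ern1f/fLyz2-Cre minus Ern1f/f in log2(FPKM + 1) for each gene with IL-4 (left) and in controls (right), within set 1 (circles) and set 2 (triangles), with the mean (bar) and the 95% interval of the blocked fit (grey). The set 2 controls lie near -1.1 for H2-Aa, H2-Ab1 and H2-Eb1, whereas the set 1 controls lie between -0.15 and -0.05.

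In set 2 controls the difference was -1.10 for H2-Aa, -1.09 for H2-Ab1, -1.09 for H2-Eb1 and -0.97 for Cd74, and in set 1 it was -0.11, -0.05, -0.15 and -0.07 for the same genes in that order. Lower values in both sets were found for 6 of the 8 genes in controls, against 18.8% of all tested genes, and for 7 of the 8 with IL-4, against 17.3%. Both controls of set 2 were also those farthest apart in Lyz2, at 2171 FPKM in Ern1f/fLyz2-Cre and 17415 FPKM in Ern1f/f cells. The other 8 macrophage markers summed there to 2254 FPKM in Ern1f/fLyz2-Cre and 2339 FPKM in Ern1f/f cells. The part of Lyz2 in the class II values was not tested.

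The interaction, the IL-4 difference in Ern1f/fLyz2-Cre cells minus that in Ern1f/f cells, was not called for any of the 8 genes (limma adjusted p = 1.0, with and without the block; 0% of all tested genes called, 19 at an unadjusted p under 0.05 without the block). Its estimates ran from -0.08 ± 0.44 (SE) for Ciita to 0.32 ± 0.39 for H2-Aa, with a median of 0.20 over the 8 genes and 0.01 over all tested genes. For the class II chains they were 0.54 to 0.62 in set 2 and -0.07 to 0.02 in set 1, so the sets differed in it as they did for the genotype.

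H2-DMb2 stood apart from its neighbour in another way, and this comparison was made after its values had been seen. The ratio of H2-DMb1 to H2-DMb2 was 31.4 to 39.1 in the 4 libraries of set 2 and 7.77 to 8.32 in the 4 of set 1, whatever the genotype or treatment. In the blocked fit H2-DMb2 differed between set 2 and set 1 by -1.80 ± 0.11 on the log2 scale (limma adjusted p = 0.000263), the difference ranking 140 among the most negative of all tested genes. The sets differed widely: 33.4% of all tested genes were called between them, 23.3% as lower in set 2, and the median of all was -0.11. The other 7 genes differed by -0.14 to 0.20 and none was called (adjusted p = 0.403 to 0.995). Of the 22 tested genes within 200 kb of H2-DMb2, itself included, 7 were called and 5 were lower in set 2. Among them Tap1, a subunit of the peptide transporter for class I, had +0.95 and H2-Ke6 had -0.70.

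The transcripts of H2-DMb1 and H2-DMb2 in GENCODE release M21 are 93.9% identical over 1255 aligned bases, and 27.2% of the 50-base stretches of H2-DMb1 occur unchanged in H2-DMb2. How reads from such shared stretches were assigned is not given in the sources used here. Their part in the difference of H2-DMb2 between the sets was not tested, and the value of H2-DMb2, the lesser of the pair, is uncertain. Within I-A the ratio of H2-Aa to H2-Ab1 also differed by set, at 1.398 to 1.52 in set 2 and 1.12 to 1.17 in set 1, without overlap. Neither gene was called between the sets, and the share of all gene pairs with such a split was not worked out. The ratio of H2-Aa to H2-Eb1 was 2.62 to 2.72 in set 2 and 2.15 to 2.52 in set 1.

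**Figure D4:**
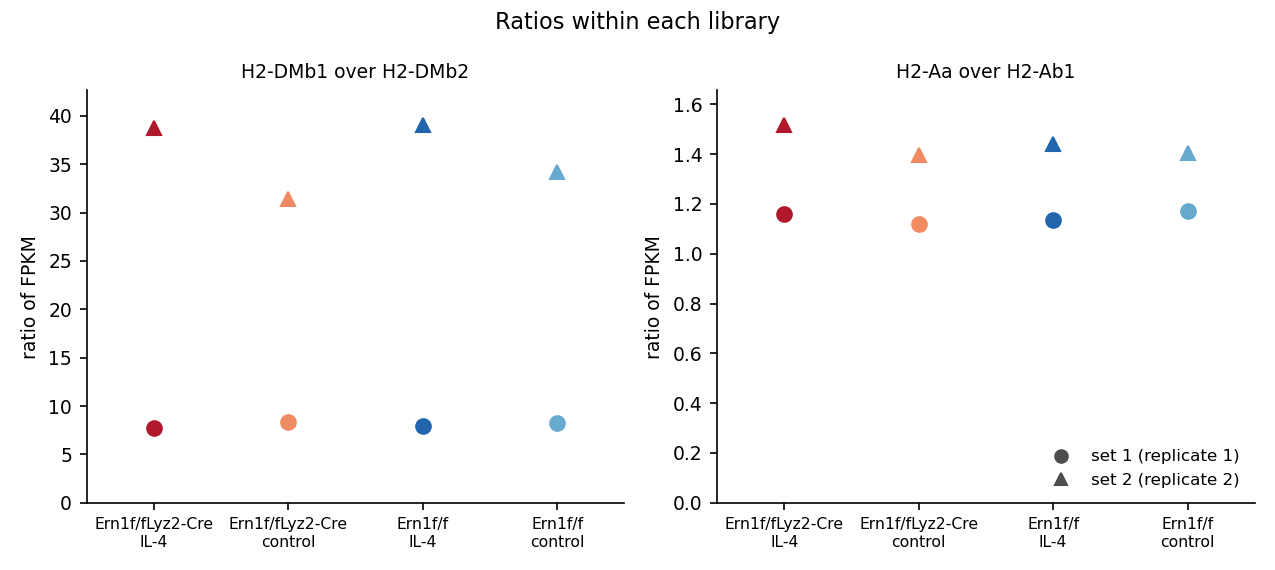
Ratio of FPKM within each library of H2-DMb1 to H2-DMb2 (left) and of H2-Aa to H2-Ab1 (right), by group, with set 1 as circles and set 2 as triangles; both axes start at 0. The sets are parted in each of the 4 groups, at 31.4 to 39.1 in set 2 and 7.77 to 8.32 in set 1 for the H2-DM beta chains.

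Of the genes that act with the class II machinery, most were not called for IL-4. Class II chains and modulators outside the 8 genes included 3 tested genes, and 0 were called in any comparison. H2-Oa held 0.906 and 0.549 FPKM in Ern1f/fLyz2-Cre cells with IL-4, 0.912 and 0.176 FPKM in their controls, 1.54 and 1.24 FPKM in Ern1f/f cells with IL-4, and 0.686 and 0.716 FPKM in Ern1f/f controls. Its difference averaged over genotypes was 0.34 ± 0.20 (SE). March1 and March8, ubiquitin ligases that remove class II from the surface, had 0.00 ± 0.11 and -0.04 ± 0.10. H2-Ob and H2-Eb2 stayed under 0.2 FPKM in every library.

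Among 12 genes of the class II compartment, all tested, none was called without the block in any comparison. With the block, 2 rose and 1 fell in the average over genotypes, where 5.88% of all tested genes rose and 6.86% fell. In that average 8 were higher in both sets, as were 29.1% of all tested genes, and 3 were lower in both, as were 37.4%. Ifi30, the thiol reductase that opens disulfide bonds of antigens, rose by 0.86 ± 0.20 (SE, for all list genes from the fit without the block; blocked adjusted p = 0.0324) and Ctss, the cathepsin that trims the invariant chain, rose by 0.42 ± 0.15 (blocked adjusted p = 0.0374). Cd82, a tetraspanin of that compartment, fell by 0.78 ± 0.35 (blocked adjusted p = 0.0227). Tspan33 had 0.62 ± 0.38 and did not pass (blocked adjusted p = 0.07). The median of the list was 0.20.

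The list of class II promoter factors was not called in any comparison, 0 of 11 tested, with a median of -0.04. It holds DNA-binding factors and cofactors that CIITA works with, and also Nlrc5, which is counted again among the class I genes. The farthest from 0 were Nfya at 0.28 ± 0.15 (SE), Ep300 at -0.26 ± 0.12 and Kat2b at -0.15 ± 0.18. The class I presentation genes, 9 tested, had a median of 0.03 and none was called. Their largest differences were those of Tapbp at 0.18 ± 0.09, H2-K1 at 0.15 ± 0.13 and Psmb8 at 0.11 ± 0.23.

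Of 13 tested genes that feed into Ciita transcription, 1 rose without the block in the average over genotypes, where 0.668% of all tested genes rose. With the block 4 rose and 2 fell, where 5.88% of all tested genes rose and 6.86% fell. Jak2, a kinase of the interferon-gamma receptor, held 20.2 and 31.8 FPKM in Ern1f/fLyz2-Cre cells with IL-4, 9.71 and 8.42 FPKM in their controls, 22.9 and 23.3 FPKM in Ern1f/f cells with IL-4, and 7.74 and 8.60 FPKM in Ern1f/f controls. It rose by 1.39 ± 0.15 (SE; adjusted p = 0.0199, blocked 0.00281). Socs1, a feedback inhibitor of JAK kinases, rose by 2.36 ± 0.47 (blocked adjusted p = 0.00519), Irf1 by 0.78 ± 0.17 (0.00368) and Irf2 by 0.53 ± 0.12 (0.0222), both transcription factors of the interferon response. Il4ra, the receptor chain for IL-4, fell by 0.68 ± 0.32 (blocked adjusted p = 0.00742) and Irf8, a factor of myeloid cells, fell by 0.41 ± 0.11 (0.0284). Jak2, Socs1 and Irf1 also rose with the block within each genotype, and Il4ra fell within Ern1f/fLyz2-Cre cells. Stat6 (-0.18 ± 0.11) was not called.

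**Figure D5:**
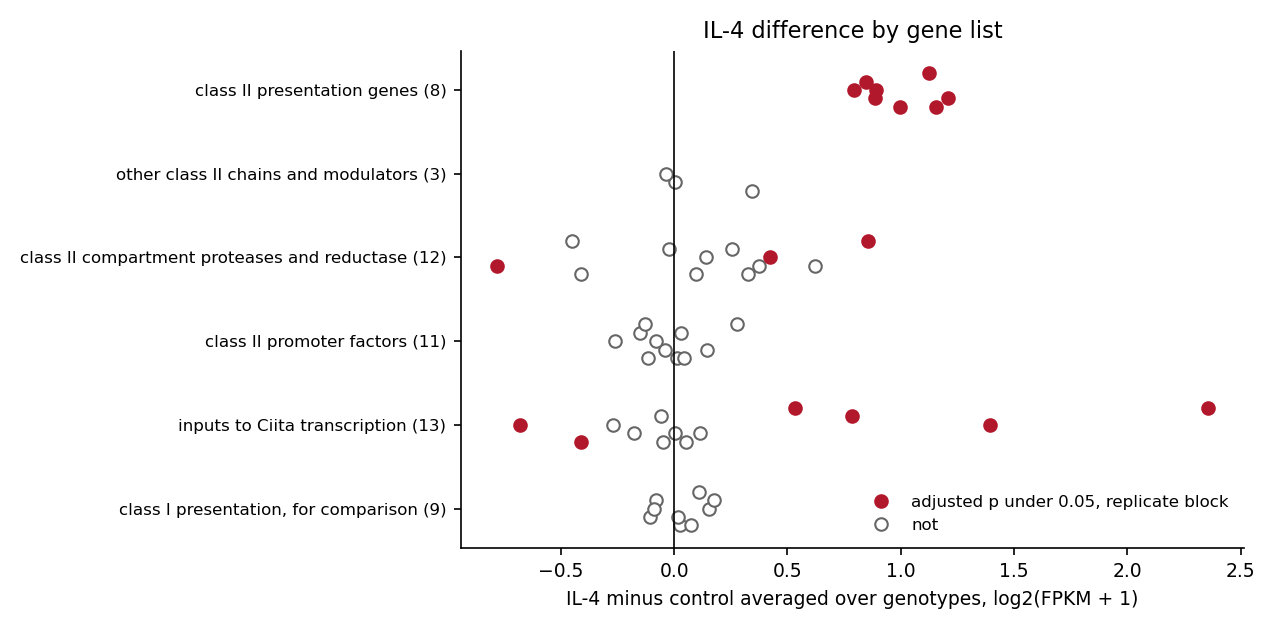
Difference of IL-4 minus control averaged over genotypes, in log2(FPKM + 1), for the 8 class II presentation genes and the tested genes of 5 lists (number in brackets), filled where the blocked limma adjusted p was under 0.05. The 8 genes lie between 0.79 and 1.21, whereas the class I genes lie within 0.2 of 0.

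Other cells that carry class II were looked for through their markers, since in bulk RNA fewer cells of a type and less RNA per cell cannot be told apart. Of 9 dendritic markers only Itgax was tested, and the other 8 stayed under 1 FPKM in every library, the defining genes Flt3, Zbtb46 and Xcr1 among them. At these low levels Zbtb46 stood at 0.468 to 0.829 FPKM with IL-4 and 0.168 to 0.344 FPKM in controls. The remaining untested markers overlapped between IL-4 and control. The summed list stood at 256 to 335 FPKM with IL-4 and 55.7 to 84.3 FPKM in controls, nearly all from Itgax, an integrin also found on macrophages, which rose by 2.17 ± 0.17 (SE; limma adjusted p = 0.0103). Of 8 B cell markers 6 stayed under 1 FPKM throughout, Ms4a1 and Pax5 among them. Their sum differed by set, as did Cd79b, at 0.524 to 1.53 FPKM in set 1 and 4.97 to 16.6 FPKM in set 2. In set 1 the sum stood at 1.22 to 2.42 FPKM with IL-4 and 2.94 to 4.14 FPKM in controls. In set 2 it stood at 5.43 to 7.85 FPKM with IL-4 and 12.1 to 16.8 FPKM in controls. Sums for T or NK markers were 2.70 to 3.02 FPKM with IL-4 and 8.17 to 9.76 FPKM in controls of set 1. In set 2 they were 1.19 to 1.62 and 2.14 to 3.08 FPKM. Neutrophil markers over both sets summed to 6.04 to 20.2 FPKM with IL-4 and 21.3 to 40.1 FPKM in controls. Fibroblast markers summed to 1.96 to 6.93 FPKM in set 2 and 80.6 to 461 FPKM in set 1. Macrophage markers without Lyz2, 8 genes, summed to 2298 to 2599 FPKM with IL-4 and 2254 to 3026 FPKM in controls. With Lyz2, which sets most of the range, the sums were 4171 to 14258 and 4424 to 21140 FPKM. In the blocked limma fit Cd14 fell by 1.67 ± 0.25 (SE of that fit, adjusted p = 0.0105) and Fcgr1 fell by 0.95 ± 0.14 (adjusted p = 0.0101). In the same blocked fit the B cell marker Cd79b fell by 0.86 ± 0.13 (adjusted p = 0.0120) and Cd4 fell by 1.0003 ± 0.22 (adjusted p = 0.0333). The neutrophil marker S100a8 fell there by 1.02 ± 0.16 (adjusted p = 0.0124). Their part in the class II values was not tested.

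The genes whose profile over the 8 libraries was nearest to the mean of H2-Aa, H2-Ab1, H2-Eb1 and Cd74 were found by root-mean-square distance in log2(FPKM + 1) after centring within each set, over 7396 genes with a mean of at least 5 FPKM. Beside the 8 genes themselves they were Vwf (0.18), Ptgir (0.18), Tgm2 (0.20), Id1 (0.21), Fam20c (0.21) and Clec5a (0.22). By the same measure the 4 class II presentation genes outside that mean lay at 0.23 to 0.28. Nearest to Ciita outside the 8 genes, over 10507 genes with a mean of at least 1 FPKM, were Il1rl2 (0.19), Pla2g5 (0.20), Ltb4r1 (0.21), Car2 (0.23), Lad1 (0.24) and Clec7a (0.25). H2-DMb1, at 0.23, was the nearest to Ciita among the class II presentation genes, followed by H2-Aa at 0.25.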

How the data were processed

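Gene-level FPKM values (fragments scaled by transcript length and library) were deposited by the authors with 95% bounds, in 1 table per library with 23838 rows. Per the submitters' processing notes, TopHat 1.4.1, Cufflinks 1.3.0 and the mm10 build were used; the gene models are not given in the sources used here. Read counts were not used. Rows sharing a symbol were summed. Genes that reached 1 FPKM in 2 or more libraries were tested as log2(FPKM + 1) with limma 3.58.1 in R 4.3.3 (4 group means, eBayes with trend, two-sided, Benjamini-Hochberg over all 10934 genes); fold changes on this scale understate those of low genes. The fit was tested on simulated data. As a check of pairing, the shift of replicate 2 from replicate 1 correlated over the genes in all 6 pairs of groups (r = 0.688 to 0.827), and 59% of the variance lay on a component that parts the numbers, so blocked values are printed where they change a call. All 8 members are named. Genes of the accompanying lists are named if called in any comparison or among the 3 largest differences of their list, and the 6 nearest profiles were taken for likeness. Members and lists were chosen with earlier results of these data known. Alternatives covered the pseudocount, filter, scaling, variance trend, rows, block, genotype field and each library left out. Python 3.11.15 and matplotlib 3.10.9 were used.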

Additional observations from a re-analysis of the deposited data

How the results depend on the processing

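All 8 genes were higher with IL-4 in both genotypes under every alternative that kept all 8 libraries. The counts and medians that moved were these. Of the 8 genes, 1 was called in Ern1f/fLyz2-Cre cells with upper quartile scaling and 1 with quantile normalization, 3 with the replicate block and 4 when groups followed the genotype field. In Ern1f/f cells 2 were called with the replicate block and 5 under the genotype field, and in the average over genotypes 8 were called with the block. With the block 1.79% (Ern1f/fLyz2-Cre), 1.26% (Ern1f/f) and 5.88% (average) of all tested genes rose. The shares under the scalings and the genotype field were not worked out, so those counts have no background beside them. Grouping by the genotype field also keeps each IL-4 comparison within 1 set. The median average difference was 1.03 with a pseudocount of 0.1, 0.86 with a pseudocount of 5 and 0.87 with quantile normalization. With each library left out in turn, the count in the average over genotypes ran from 0 to 2, its median from 0.84 to 1.14 and the median in Ern1f/fLyz2-Cre cells from 0.78 to 1.32. In the blocked fit the counts ran from 0 to 4 (Ern1f/fLyz2-Cre), 0 to 3 (Ern1f/f) and 3 to 8 (average), and the medians from 0.76 to 1.38, 0.57 to 1.07 and 0.80 to 1.10. There the median genotype difference with IL-4 ran from -0.40 to -0.10. Without the block the median genotype difference in controls ran from -0.785 to -0.19 and the median interaction from -0.064 to 0.47, with a turn of sign; with the block they ran from -0.78 to -0.17 and from -0.065 to 0.44.

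Signs turned with a library left out for these genes, none of them called. Without the block, H2-DMb2 ran from -0.049 to 1.98 for IL-4 in Ern1f/fLyz2-Cre cells, from -0.20 to 1.81 for IL-4 in Ern1f/f cells, from -1.003 to 0.63 for the genotype in controls, from -1.04 to 0.99 for the genotype with IL-4 and from -0.85 to 1.17 for the interaction. Ciita ran from -0.75 to 0.16 for the genotype in controls and from -0.54 to 0.38 for the interaction, and H2-DMa from -0.13 to 0.053 for the genotype with IL-4 and from -0.037 to 0.33 for the interaction. Interactions also ran from -0.14 to 0.60 for H2-Ab1, -0.071 to 0.61 for H2-Eb1 and -0.064 to 0.39 for Cd74. With the block, the genotype difference in controls ran from -0.41 to 0.036 for H2-DMa and -0.84 to 0.24 for Ciita, and with IL-4 from -0.19 to 0.11 for H2-DMa and -0.18 to 0.13 for H2-DMb2. Blocked interactions ran from -0.090 to 0.73 for H2-Aa, -0.17 to 0.64 for H2-Ab1, -0.18 to 0.72 for H2-Eb1, -0.075 to 0.37 for H2-DMa, -0.025 to 0.34 for H2-DMb2, -0.23 to 0.56 for Cd74 and -0.62 to 0.46 for Ciita.

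The causes were not tested. The replicate block took up the difference between the sets, most visibly for H2-DMb2, and changed no call of the 8 genes for the genotype or the interaction. With 2 libraries per group the genotype differences are known only to within their intervals. By the genotype field of the labels, the genotype coincides with the replicate number, and the effects of each cannot be told apart; Lyz2 followed the titles.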
